A study of Rattus norvegicus with 18 samples.

Results

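Nefm, Dpysl2, Syn1, Syt13 and Cacna2d1 encode a neurofilament chain, a tubulin-binding protein, a synapsin, a synaptotagmin and a calcium channel subunit. They are described here as mRNAs of regenerating rat axoplasm, the cytoplasm pressed out of nerve axons. The part of RNA from other cells of the nerve in their levels was not tested. Each is 1 transcript entry, found by its gene symbol, among 13416 entries in the deposited table. All 5 passed the filter on low counts in both fits used here. Their symbols were picked from earlier comparisons of these same libraries with the FLAG control, where Nefm stood out with hnRNP F, Dpysl2, Syn1 and Cacna2d1 with hnRNP H1, and Syt13 with hnRNP K. Comparisons that involve the FLAG libraries, or the antibody for which an mRNA was picked, are therefore given as values with no test. That leaves 30 pairs of an mRNA and a comparison that were tested. Between hnRNP H1 and hnRNP F 0 of 13227 transcripts were called. Tests with either are therefore not independent of a choice made with the other.

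The study asked which mRNAs associate with which RNA-binding proteins in regenerating axons. SD rats had the sciatic nerve crushed, and the nerve proximal to the crush was taken 7 days later. The labels do not state the animals' age. Axoplasm was extruded in isotonic buffer with no detergent, and proteins were precipitated with their RNA (RIP, RNA immunoprecipitation). The groups were RIP of hnRNP H1, of hnRNP F, of hnRNP K and of La/SSB, each with its own antibody, RIP with an antibody to FLAG, an epitope tag, as the control, and Input, RNA of axoplasm with no antibody. Each of the 6 groups had 3 libraries, 18 in all. Every group came from crushed nerve, so no uninjured axoplasm stands beside these values. The labels do not say whether the libraries came from separate animals, so the spread behind each p-value is that between libraries and may be technical.

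Neurofilament medium chain, the product of Nefm, is a subunit of the filaments that fill large axons and set their calibre. Dpysl2 encodes a collapsin response mediator protein, which binds tubulin and promotes axon growth. Synapsin I, from Syn1, coats synaptic vesicles and tethers them to actin. Syt13 encodes an atypical synaptotagmin that lacks the residues with which other synaptotagmins bind calcium. Cacna2d1 encodes an α2δ subunit of voltage-gated calcium channels, which brings the channels to the surface of nerve endings and is a target of gabapentin. RNA-binding proteins carry mRNAs into axons and control their stability and translation. hnRNP H1 and hnRNP F are close relatives that bind guanine-rich RNA, hnRNP K prefers cytosine-rich RNA, and La/SSB binds uridine-rich ends of small RNAs and has been found in axons. In Xenopus, hnRNP K is known to bind the neurofilament medium mRNA and to be needed for its translation.

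Read totals ran from 4610750 to 16754262 per library, so that 3 reads corresponded to 0.179 to 0.651 CPM (counts per 1000000 reads), and this covers counting error only. CPM values below are scaled by TMM factors (trimmed mean of M-values) over the 18 libraries, and FPKM values are the authors' own, per transcript length. The FLAG libraries varied most, with a median SD of 0.98 on the log2 CPM scale over all transcripts, against 0.38 to 0.77 in the 5 other groups. FLAG libraries 1 and 3 listed 1601 and 1568 entries with 0 reads and FLAG library 2 listed 776. La/SSB library 1 held at least 10 reads in every entry, and no other library had such a floor. No source used here says why. If entries were kept by their reads in that library, a gene with no entry may still be present in axoplasm. Of 33 neuron markers 11 were in the table, and they took 0.036% to 0.041% of reads with hnRNP H1, 0.0378% to 0.0456% with hnRNP F, 0.115% to 0.166% with hnRNP K, 0.0506% to 0.0797% with La/SSB, 0.0222% to 0.0243% with FLAG and 0.0502% to 0.0671% in Input. Elavl3, Elavl4, Rbfox3, Isl1 and Calca are among the defining neuron markers with no entry. Schwann cell markers took 0.413% to 0.494% of Input reads and fibroblast and perineurium markers 6.86% to 11.2%. The most abundant entry carried much of the sums, and without it, an alternative chosen after seeing the data, the order of the groups differed. Without Ntrk2 the neuron markers took 0.0256% to 0.0299% of reads with hnRNP H1, 0.0241% to 0.0315% with hnRNP F, 0.0197% to 0.0225% with hnRNP K, 0.0219% to 0.0293% with La/SSB, 0.0111% to 0.0199% with FLAG and 0.0167% to 0.0229% in Input. The part of RNA from these other cells in the values below was not tested.

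The mRNAs fell into 3 patterns across the antibodies. Nefm, Dpysl2 and Cacna2d1 were high with hnRNP H1 and hnRNP F and far lower with hnRNP K and La/SSB. Nefm and Cacna2d1 stayed near or below Input with these last antibodies. Dpysl2 lay somewhat above Input with hnRNP K, at means of 419 and 269 CPM, which was not called. Its La/SSB range overlapped Input. Syn1 was high with hnRNP H1, hnRNP F and hnRNP K. Syt13 was at similar levels with these 3 antibodies, overlapped Input, and was nearly missing from the FLAG libraries. Of the 30 tests, 12 were called higher, 0 lower, and 18 were not called, at an adjusted p under 0.05 in edgeR's quasi-likelihood test. Among them, 4 of 6 tests were called for Syn1, 3 of 6 for Nefm, 3 of 6 for Dpysl2, 2 of 6 for Cacna2d1 and 0 of 6 for Syt13. Over all transcripts the share called ran from 0% to 27% in the comparisons tested. All of these calls except those of Syn1 with hnRNP K tested hnRNP H1 or hnRNP F for an mRNA picked with the other. The choice of mRNAs bears on those tests with hnRNP H1 or hnRNP F.

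**Figure D1:**
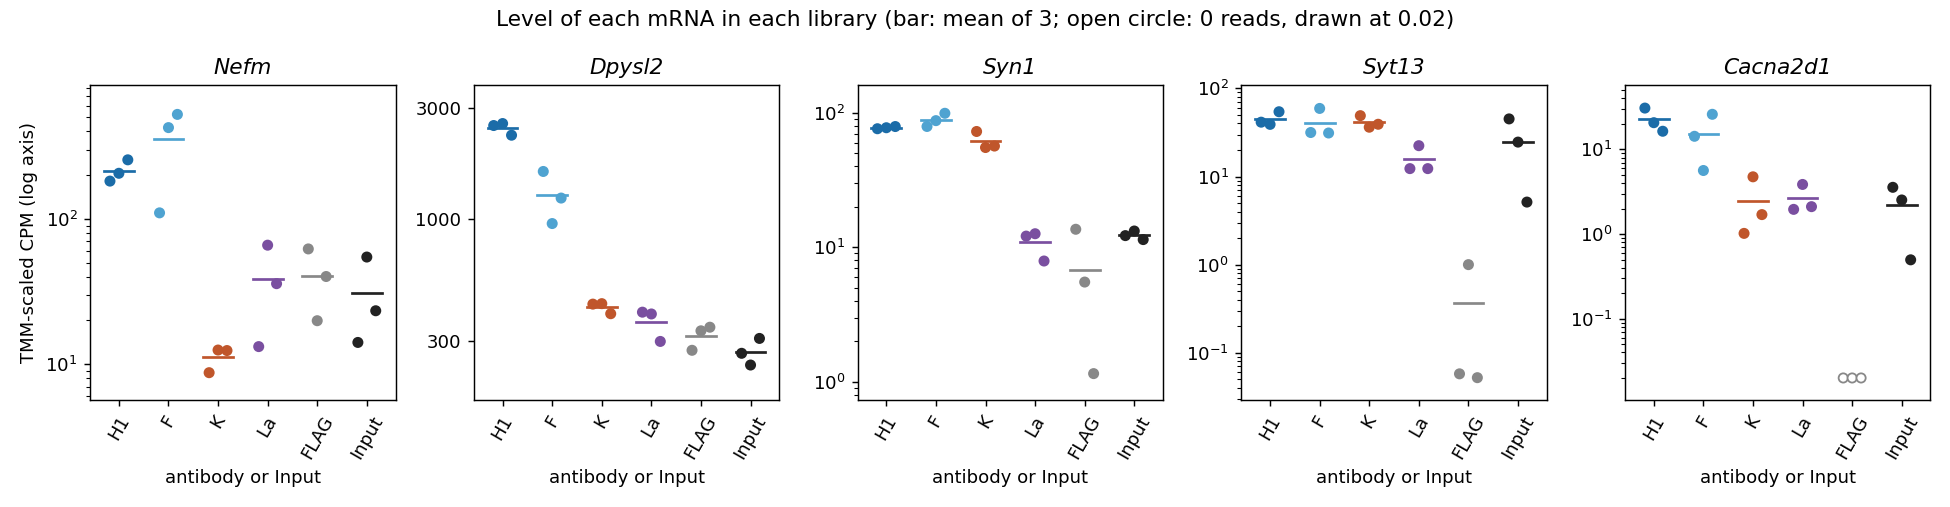
TMM-scaled CPM on a log axis of each of the 5 mRNAs in the 18 libraries, grouped by antibody with FLAG RIP and Input at the right, points being libraries and bars the mean of 3. Nefm, Dpysl2 and Cacna2d1 are high with hnRNP H1 and hnRNP F, Syn1 also with hnRNP K, and Cacna2d1 has 0 reads in all 3 FLAG libraries (open circles, drawn at 0.02).

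Nefm (ENSRNOT00000018637, chromosome 15) was found at 182, 206 and 255 CPM with hnRNP H1 and at 110, 425 and 524 CPM with hnRNP F. It was at 8.73, 12.5 and 12.4 CPM with hnRNP K and at 13.2, 65.9 and 35.8 CPM with La/SSB. The FLAG libraries held 62.1, 19.9 and 40.1 CPM and Input 14.1, 54.6 and 23.3 CPM. All hnRNP H1 and hnRNP F libraries thus lay above all others, and all 3 hnRNP K libraries lay below all others. In order of the means hnRNP F came first (353 ± 216 CPM, SD, n = 3), with hnRNP H1 next (214 ± 37.6 CPM), and these ranges overlapped. FLAG RIP, La/SSB and Input followed, with neighbouring ranges that overlapped, and hnRNP K was last (11.2 ± 2.16 CPM). In such bulk samples fewer cells or axons with an mRNA and less of the mRNA in each cannot be told apart.

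With hnRNP H1, Nefm rose by 2.80 ± 0.61 (log2 fold change ± SE) against Input, from edgeR's quasi-likelihood test with Benjamini-Hochberg adjustment (adjusted p = 0.00203). It was also higher than with La/SSB by 2.50 ± 0.57 (edgeR adjusted p = 0.00501) and than with hnRNP K by 4.18 ± 0.62 (edgeR adjusted p = 5.67e-05). Input library 2 and La/SSB library 2 held the most Nefm in their groups, and without them the first 2 differences were 3.49 and 3.14. Both stayed called. The hnRNP K libraries were lower than Input by −1.45 ± 0.59 and lower than La/SSB by −1.68 ± 0.56, and neither passed the test (edgeR adjusted p = 0.122 and 0.0591). Scaled to total counts in place of TMM factors, these were −2.11 and −2.58, and both passed (edgeR adjusted p = 0.0161 and 0.00397). Over all alternatives the adjusted p ran from 0.0161 to 0.566 for Input and from 0.00397 to 0.317 for La/SSB. The difference from La/SSB was −2.09 and also passed without La/SSB library 1 (edgeR adjusted p = 0.0245). Without Input library 2 the hnRNP K difference from Input shrank to −0.69, and without La/SSB library 2 that from La/SSB shrank to −1.04. With La/SSB, Nefm differed from Input by 0.32 ± 0.58 (edgeR adjusted p = 0.977), by −0.36 without La/SSB library 2 and by 0.99 without Input library 2. Without a test, hnRNP F stood 3.52 ± 0.63 above Input, or 4.2 without Input library 2, and 4.90 ± 0.64 above hnRNP K.

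Against FLAG RIP, which all 4 antibodies share as control, the differences for Nefm were 2.34 ± 0.57 with hnRNP H1, 3.05 ± 0.59 with hnRNP F, −1.85 ± 0.56 with hnRNP K and −0.16 ± 0.54 with La/SSB. The La/SSB value was −0.80 without La/SSB library 2. FLAG RIP itself differed from Input by 0.41 ± 0.58, or by 1.16 without Input library 2. With FLAG library 2 as the only control library, the 4 differences were 3.40, 4.11, −0.78 and 0.90, so the sign for La/SSB turned.

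Dpysl2 (ENSRNOT00000012996, chromosome 15) was the most abundant of the 5 in every group. Its levels were 2520, 2570 and 2290 CPM with hnRNP H1 and 1600, 956 and 1230 CPM with hnRNP F. The hnRNP K libraries held 431, 433 and 392 CPM, the La/SSB libraries 398, 391 and 298 CPM, the FLAG libraries 273, 331 and 343 CPM, and the Input libraries 265, 236 and 307 CPM. Every hnRNP H1 library lay above every hnRNP F library, and every hnRNP F library above all 12 others. From hnRNP K down to Input each group overlapped the next.

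With hnRNP F, Dpysl2 rose against Input by 2.23 ± 0.23 (edgeR adjusted p = 1.09e-06), and it was above hnRNP K by 1.54 ± 0.24 (edgeR adjusted p = 0.000104) and above La/SSB by 1.82 ± 0.24 (edgeR adjusted p = 4.46e-05). These 3 calls held under each alternative listed for them, including each library left out. With hnRNP K the difference from Input was 0.64 ± 0.22 and was not called (edgeR adjusted p = 0.0632), although all 3 hnRNP K libraries lay above all 3 Input libraries. It passed with RLE factors (edgeR adjusted p = 0.0405), with only the 6 libraries compared (0.0205), with a replicate block (0.0453) and by DESeq2 (0.0256), and it turned to −0.05 when libraries were scaled to total counts. With La/SSB it was 0.43 ± 0.22 (edgeR adjusted p = 0.721). hnRNP K and La/SSB differed from each other by 0.29 ± 0.23 (edgeR adjusted p = 0.486), or by −0.62 with total counts. Given without a test, the levels with hnRNP H1 were 3.19 ± 0.24 above Input, 0.94 ± 0.24 above hnRNP F and 2.48 ± 0.25 above hnRNP K. Against the shared FLAG RIP the differences were 2.91 ± 0.25 with hnRNP H1, 1.97 ± 0.24 with hnRNP F, 0.43 ± 0.23 with hnRNP K and 0.14 ± 0.23 with La/SSB. The hnRNP K value was −0.30 with total counts.

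Syn1 (ENSRNOT00000014250, chromosome X) was at 76, 77.3 and 78.9 CPM with hnRNP H1, at 79, 87.3 and 99 CPM with hnRNP F and at 72.5, 55.1 and 56.5 CPM with hnRNP K. It was at 12.1, 12.6 and 7.9 CPM with La/SSB. The FLAG libraries held 13.6, 5.51 and 1.15 CPM and Input 12.2, 13.2 and 11.4 CPM. The 9 libraries of the 3 hnRNPs did not overlap the 9 others. hnRNP F, hnRNP H1 and hnRNP K followed in this order without overlap of their ranges, although the means lay close together, at 88.4 ± 10 CPM, 77.4 ± 1.44 CPM and 61.4 ± 9.64 CPM (SD, n = 3 each). Input, La/SSB and FLAG RIP then overlapped from neighbour to neighbour.

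Syn1 rose with hnRNP F by 2.85 ± 0.57 against Input (edgeR adjusted p = 0.00131) and by 3.03 ± 0.61 against La/SSB (edgeR adjusted p = 0.00228). With hnRNP K it rose by 2.32 ± 0.56 against Input (edgeR adjusted p = 0.00837) and by 2.58 ± 0.60 against La/SSB (edgeR adjusted p = 0.00782). Scaled to total counts, the last of these was 1.66 and no longer called (edgeR adjusted p = 0.0512, the highest of its alternatives, with 0.000113 the lowest). hnRNP F and hnRNP K differed by 0.46 ± 0.56 (edgeR adjusted p = 0.587), and La/SSB and Input by −0.18 ± 0.54 (edgeR adjusted p = 0.988). Without a test, hnRNP H1 was 2.65 ± 0.57 above Input. The differences from the shared FLAG RIP were 3.46 ± 0.62 with hnRNP H1, 3.66 ± 0.63 with hnRNP F, 3.2 ± 0.61 with hnRNP K and 0.63 ± 0.57 with La/SSB. FLAG library 1 held most of the control's Syn1, with 236 reads against 55 and 22 in the other two. Without it the 4 differences were 4.53, 4.73, 4.27 and 1.69.

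Syt13 (ENSRNOT00000011459, chromosome 3) was at 41.4, 39.1 and 54.4 CPM with hnRNP H1, at 31.6, 59.3 and 31.2 CPM with hnRNP F and at 49.1, 36.3 and 39.2 CPM with hnRNP K. The La/SSB libraries held 12.3, 22.4 and 12.3 CPM. The FLAG libraries held 1, 10 and 1 reads, which is 0.0576, 1 and 0.0521 CPM, and Input held 45.1, 24.6 and 5.13 CPM. Only the FLAG libraries stood clear of all others. Input spread over nearly the whole range of the precipitates, so that every neighbour in the order overlapped, apart from La/SSB and FLAG RIP.

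None of the 6 tests of Syt13 was called. The differences from Input were 0.85 ± 0.72 with hnRNP H1, 0.71 ± 0.72 with hnRNP F and −0.67 ± 0.72 with La/SSB (edgeR adjusted p = 0.433, 0.551 and 0.956). Without Input library 1 they were 1.57, 1.45 and 0.04. hnRNP H1 differed by 0.13 ± 0.66 from hnRNP F and by 1.53 ± 0.68 from La/SSB, and hnRNP F by 1.40 ± 0.68 from La/SSB (edgeR adjusted p = 0.97, 0.145 and 0.204). With only the 6 libraries compared, or by DESeq2, the difference of hnRNP H1 from La/SSB passed the threshold (adjusted p = 0.0109 and 0.0286). Over its alternatives the adjusted p ran from 0.0109 to 0.448. Given without a test, the differences from the shared FLAG RIP were 7.04 ± 0.90 with hnRNP H1, 6.91 ± 0.89 with hnRNP F, 7.00 ± 0.89 with hnRNP K and 5.51 ± 0.85 with La/SSB, while FLAG RIP lay 6.24 below Input on the same scale. Without FLAG library 2 the 4 differences were 9.33, 9.20, 9.29 and 7.80, and that of FLAG RIP from Input was −8.48. The last was −5.47 without Input library 1. hnRNP K, for which Syt13 was picked, stood 0.74 ± 0.72 from Input, or 1.54 without Input library 1. With each of the 4 antibodies the difference of Syt13 from Input was thus far smaller than that from FLAG RIP.

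Cacna2d1 (ENSRNOT00000042914, chromosome 4) was the scarcest of the 5. It was at 30.8, 20.7 and 16.4 CPM with hnRNP H1 and at 14.3, 5.64 and 26 CPM with hnRNP F. The hnRNP K libraries held 1.02, 4.75 and 1.7 CPM, the La/SSB libraries 1.96, 3.86 and 2.11 CPM, and Input 3.57, 2.53 and 0.497 CPM, which were 19, 14 and 3 reads. The FLAG libraries held 0 reads in all 3. hnRNP H1 and hnRNP F overlapped each other and lay above every other library, and La/SSB, hnRNP K and Input overlapped.

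With hnRNP F, Cacna2d1 rose against Input by 2.79 ± 0.92 (edgeR adjusted p = 0.0405) and lay above hnRNP K by 2.54 ± 0.87 (edgeR adjusted p = 0.039). Both calls depended on single libraries. The first was lost without hnRNP F library 1 or 3 or any 1 of the Input libraries (edgeR adjusted p from 0.061 to 0.154, and from 0.00431 to 0.154 over all alternatives), and the value was 2.18 without hnRNP F library 3. The second was lost without hnRNP F library 1 or 3 or hnRNP K library 1 or 3 (edgeR adjusted p from 0.0647 to 0.142, and from 0.0047 to 0.142 over all alternatives), and it was 3.39 and still called without hnRNP K library 2. Against La/SSB the difference was 2.53 ± 0.86 (edgeR adjusted p = 0.0692). hnRNP K and La/SSB lay 0.18 ± 0.87 and 0.27 ± 0.87 from Input (edgeR adjusted p = 0.925 and 0.988) and −0.01 ± 0.83 from each other (edgeR adjusted p = 0.994). Without hnRNP K library 2, which held most of that group's Cacna2d1, the hnRNP K values were −0.68 from Input and −0.86 from La/SSB, and with total counts the first was −0.42. Given without a test, hnRNP H1 was 3.36 ± 0.94 above Input and 3.12 ± 0.88 above hnRNP K, or 3.96 without hnRNP K library 2. The limit of a count of 0 over the FLAG group was set at 3 reads. Cacna2d1 was then at least 349-fold higher with hnRNP H1, 228-fold with hnRNP F, 37.1-fold with hnRNP K and 40.4-fold with La/SSB. These bounds cover counting error only and describe FLAG counts by which Cacna2d1 was picked, so they test nothing. Leaving out hnRNP H1 library 1, hnRNP F library 3, hnRNP K library 2 or La/SSB library 2 gave 291-fold, 153-fold, 21.5-fold and 31.4-fold. FLAG RIP was at least 33.1-fold lower than Input by the same limit.

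**Figure D2:**
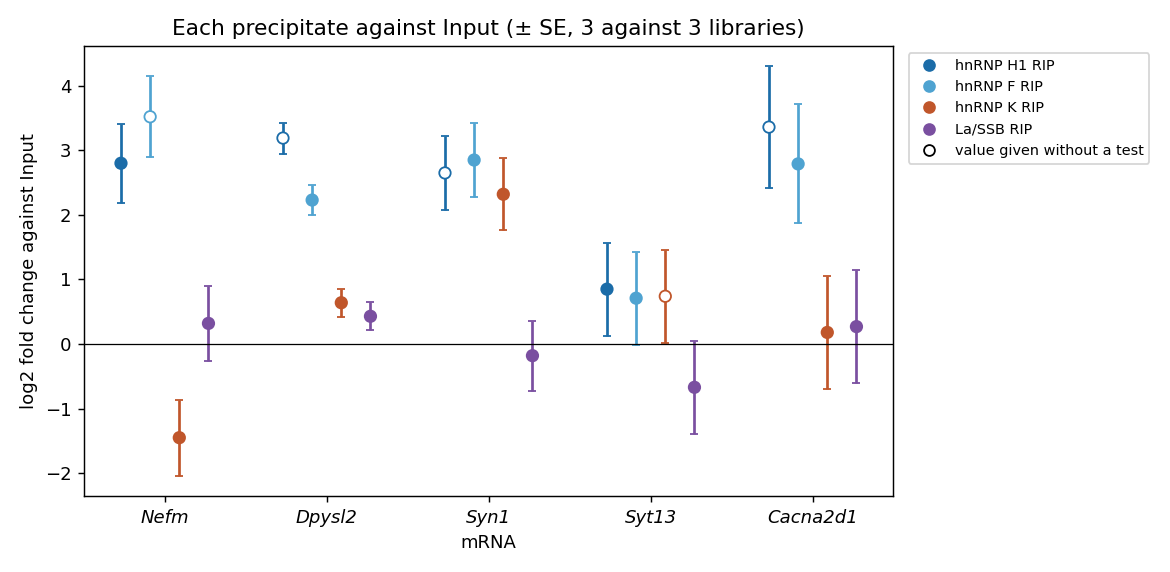
Log2 fold change (± SE, 3 libraries against 3) of each precipitate over Input for the 5 mRNAs, with open points for values given without a test. With La/SSB all 5 lie within 0.67 of Input, with hnRNP K Syn1 stands apart at 2.32, and with hnRNP H1 and hnRNP F 4 of the 5 lie above 2.

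The tests stand beside the share of all transcripts called in the same comparison. Dpysl2, Syn1 and Cacna2d1 were picked with hnRNP H1 and tested with hnRNP F, and Nefm the other way round. With 0 of 13227 transcripts called between these antibodies, the choice bears on those tests too. A count above the share is therefore no independent result for hnRNP H1 or hnRNP F. For hnRNP H1 against Input 1 of the 2 mRNAs tested was called, where 23% of 13263 transcripts were called in either direction. For hnRNP F against Input it was 3 of 4, where 18.1% were called. For hnRNP K it was 1 of 4, where 12.8% were called, and for La/SSB 0 of 5, where 0.0452% (6 transcripts by edgeR, 986 at an unadjusted p under 0.05, 94 by DESeq2) were called. Between antibodies, 1 of 1 was called for hnRNP H1 against hnRNP K (26.8% of 13227 transcripts called), 1 of 2 for hnRNP H1 against La/SSB (15.8%), 2 of 3 for hnRNP F against hnRNP K (27%), 2 of 4 for hnRNP F against La/SSB (12.1%) and 1 of 4 for hnRNP K against La/SSB (12.2%). For hnRNP H1 against hnRNP F the single test, of Syt13, was not called, nor was any of 13227 transcripts (0%). At an unadjusted p under 0.05 there were 1254, and DESeq2 called 73.

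Per transcript length the 5 mRNAs spanned a wide range. With hnRNP H1 mean FPKM was 823 for Dpysl2, 56.9 for Nefm, 19.8 for Syn1, 10.6 for Syt13 and 4.65 for Cacna2d1. In Input it was 134 for Dpysl2, 12.1 for Nefm, 8.39 for Syt13, 4.66 for Syn1 and 0.651 for Cacna2d1, so Syn1 and Syt13 stood in the opposite order. With hnRNP K, Syn1 (14.4 FPKM) and Syt13 (8.94 FPKM) stood above Nefm (2.8 FPKM), whereas in Input both stood below it. By mean FPKM over the 18 libraries Dpysl2 ranked 188 of 13416 entries, Nefm 2440, Syn1 5599, Syt13 7211 and Cacna2d1 11377. The authors' deposited table gives log2 fold changes against Input with hnRNP F of 3.59 for Nefm, 2.27 for Dpysl2, 2.88 for Syn1 and 0.74 for Syt13.

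**Figure D3:**
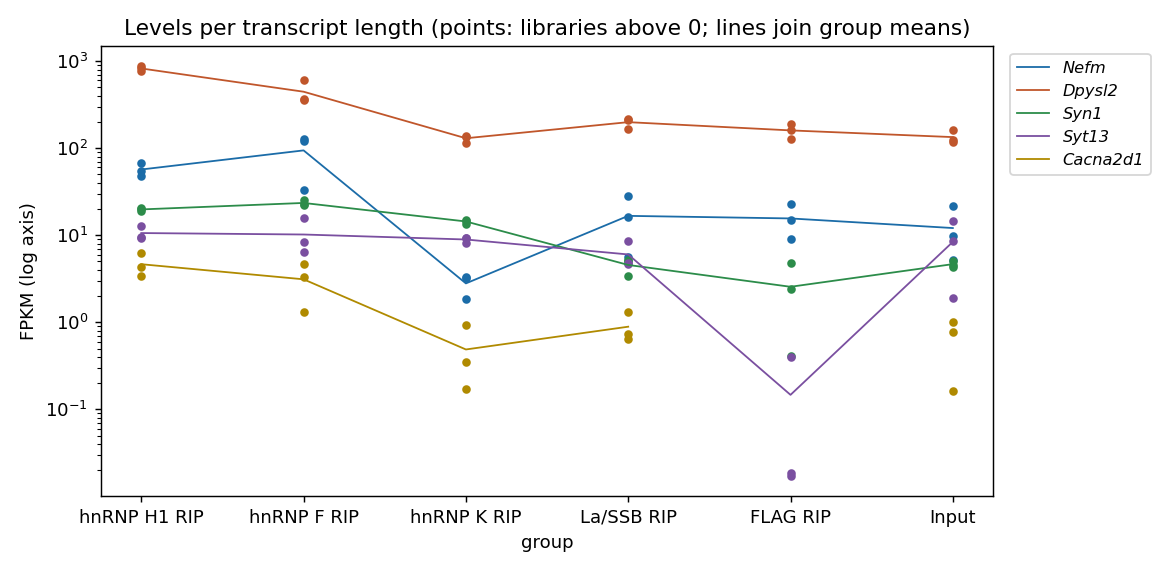
The authors' FPKM of the 5 mRNAs on a log axis by group, with points for libraries above 0 and lines between group means (Cacna2d1 has no FLAG point, being at 0 there). Dpysl2 is highest in each group, and Nefm falls to a mean of 2.8 FPKM with hnRNP K, below Syn1 and Syt13.

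Relatives from the same protein families shared the pattern in part. Dpysl3 (ENSRNOT00000025880), another collapsin response mediator protein, was at 196 ± 20.4 CPM with hnRNP H1, 143 ± 64.5 CPM with hnRNP F, 45.6 ± 2.35 CPM with hnRNP K, 29.8 ± 9.7 CPM with La/SSB, 12.6 ± 1.71 CPM with FLAG and 22.9 ± 11.2 CPM in Input (SD, n = 3 each). Against Input it rose by 3.09 ± 0.43 with hnRNP H1 and 2.65 ± 0.43 with hnRNP F (edgeR adjusted p = 2.42e-05 and 0.000156), and with hnRNP K it differed by 0.99 ± 0.41 (edgeR adjusted p = 0.121). For this entry the order of the 4 antibodies is that seen with Dpysl2. A second, scarce Dpysl3 entry (ENSRNOT00000087876) did not share it. Its means were 4.53 ± 6.88 CPM with hnRNP H1, 0.676 ± 0.674 with hnRNP F, 0.519 ± 0.469 with hnRNP K and 0.694 ± 0.526 with La/SSB. Nefl, the neurofilament light chain, was far scarcer than Nefm, at 7.79 ± 4.45 CPM with hnRNP H1, 24.4 ± 13.7 CPM with hnRNP F, 4.92 ± 2.95 CPM with hnRNP K, 22 ± 15.7 CPM with La/SSB, 4.4 ± 3.13 CPM with FLAG and 8.24 ± 4.63 CPM in Input. Its differences from Input were −0.08 ± 0.84 with hnRNP H1 and 1.56 ± 0.85 with hnRNP F, and neither was called (edgeR adjusted p = 0.962 and 0.222). Whether Nefl and Nefm differ in their hnRNP H1 values was not itself tested.

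Cacna2d2, a second α2δ subunit, was more abundant than Cacna2d1, with mean FPKM of 45.8 and 4.65 with hnRNP H1. It was at 256 ± 7.35 CPM with hnRNP H1, 211 ± 109 CPM with hnRNP F, 178 ± 7.56 CPM with hnRNP K, 50.6 ± 25.5 CPM with La/SSB, 108 ± 131 CPM with FLAG and 55.9 ± 20.1 CPM in Input. It rose against Input with hnRNP H1 by 2.19 ± 0.66 and with hnRNP F by 1.91 ± 0.65 (edgeR adjusted p = 0.0195 and 0.0468), and with hnRNP K the difference was 1.67 ± 0.65 (edgeR adjusted p = 0.101). Unlike Cacna2d1 it was present in FLAG RIP, where its 3 libraries ran from 13.5 to 257 CPM. Syt11, a vesicle-trafficking synaptotagmin, rose with hnRNP K to 46.2 ± 1.08 CPM, against 9.31 ± 3.87 CPM in Input, by 2.31 ± 0.64 (edgeR adjusted p = 0.0193). With La/SSB it was at 34.4 ± 15.2 CPM, a range that overlapped hnRNP K, and 1.88 ± 0.63 from Input (edgeR adjusted p = 0.406). With hnRNP H1 and hnRNP F it was 1.70 ± 0.62 and 1.72 ± 0.63 from Input (edgeR adjusted p = 0.0544 and 0.0614). The other synapsins, Syn2 and Syn3, averaged at most 3.73 and 7.51 CPM in any group. Cacna2d4, with its highest mean with hnRNP K at 4.14 ± 1.75 CPM, and Syt5 were scarce. Like Cacna2d1, both were at 0 CPM with FLAG. Nefh, Ina, Dpysl4, Dpysl5, Crmp1 and most other synaptotagmins had no entry in the deposited table, which does not show that axoplasm lacked them.

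**Figure D4:**
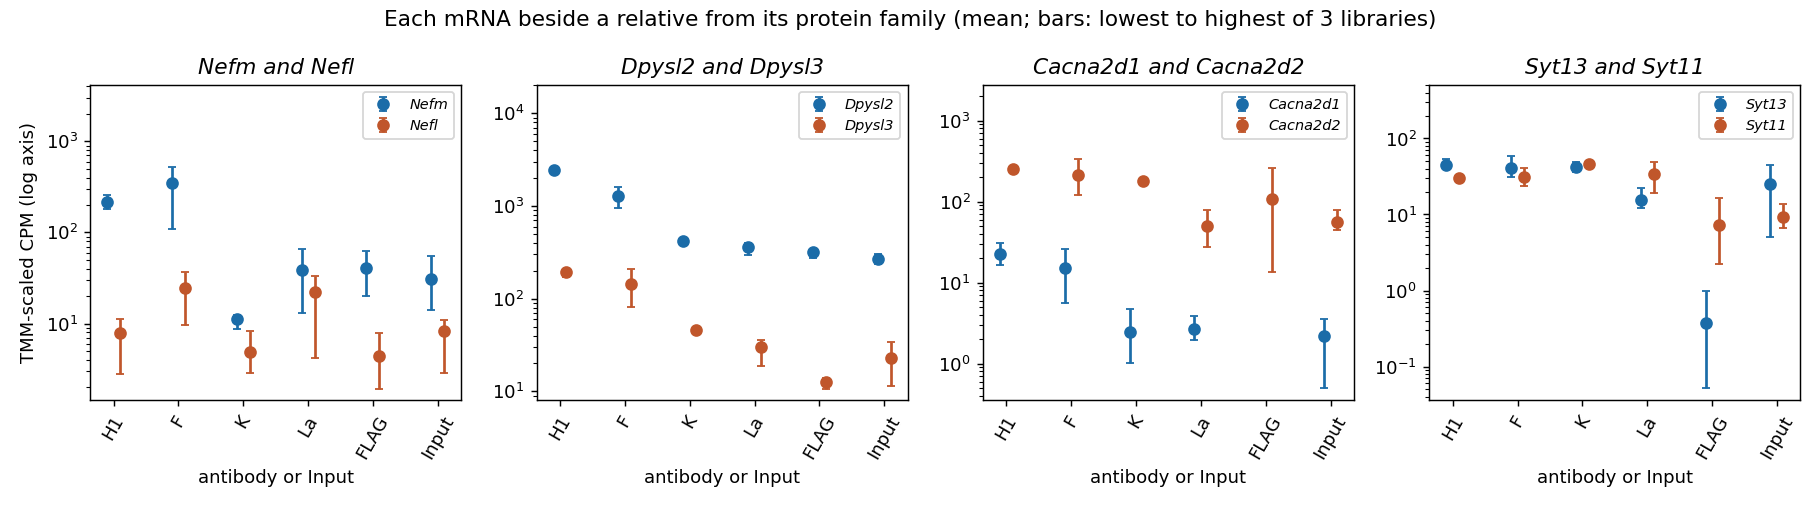
Mean TMM-scaled CPM on a log axis of Nefm, Dpysl2, Cacna2d1 and Syt13 (blue), each beside a family relative (orange), by group, with bars from the lowest to the highest of 3 libraries. The more abundant of 2 Dpysl3 entries follows the same order of antibodies as Dpysl2 at lower levels. Nefl stays under 40 CPM throughout and Cacna2d2 stays high with hnRNP K (Cacna2d1 is at 0 with FLAG and not drawn there).

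The wider axonal cytoskeleton did not move as a block. Of 40 listed genes 29 were in the table, with 36 entries tested. With hnRNP H1 against Input 5 were called higher and 4 lower (12.8% and 10.2% of all transcripts), with hnRNP F 5 and 2 (10.8% and 7.28%), with hnRNP K 3 and 1 (6.56% and 6.24%), and with La/SSB 0 and 0 (0.0226% each). The list's median log2 fold changes were 0.08, 0.13, −0.04 and 0.29, beside 0.00, 0.01, −0.07 and 0.07 over all transcripts. Map1b, which stabilises axonal microtubules, rose with hnRNP H1, hnRNP F and hnRNP K alike, by 1.21 ± 0.24, 1.18 ± 0.24 and 1.2 ± 0.24 (edgeR adjusted p = 0.000911, 0.00164 and 0.00226). Tuba1a, an α-tubulin, rose with hnRNP H1 by 1.25 ± 0.32 and with hnRNP F by 2.08 ± 0.33 (edgeR adjusted p = 0.00691 and 0.000132), although reads may be shared with near-identical α-tubulin genes. Mapre2, a microtubule end-binding protein, went the other way, falling with hnRNP H1 by 1.40 on the log2 scale and rising with hnRNP K by 1.82 ± 0.27 (edgeR adjusted p = 0.000532 and 0.000132). Dclk1, a microtubule-binding kinase, fell by 1.73 with hnRNP H1 and by 1.41 with hnRNP F (edgeR adjusted p = 6.53e-05 and 0.000708). The hnRNP H1 count of 5 was 3 without hnRNP H1 library 3, without Input library 1 or with total counts, and the hnRNP F count of 5 was 3 without hnRNP F library 3 or Input library 1. The hnRNP H1 count of 4 lower was 2 without hnRNP H1 library 1 or 2, and 7 with total counts.

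Against FLAG RIP 6 of the 36 cytoskeletal entries were called higher and 5 lower with hnRNP H1 (18.7% and 17.1% of all transcripts), 6 and 2 with hnRNP F (16.5% and 13.6%), 8 and 4 with hnRNP K (15.7% and 14.9%), and 1 and 1 with La/SSB (8.51% and 5.36%). Of these, the hnRNP H1 count of 6 was 3 without hnRNP H1 library 2 or 3, and its count of 5 was 2 without library 1 or 2 and 3 without FLAG library 3. The hnRNP F count of 6 was 3 without hnRNP F library 3. The hnRNP K count of 4 was 2 without any 1 of its libraries and 1 with FLAG library 2 as the only control library. Scaled to total counts, the split turned to 2 higher and 10 lower with hnRNP H1, 3 and 5 with hnRNP F, and 4 and 8 with hnRNP K.

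Among genes of the synaptic vesicle and presynapse all calls with hnRNP K against Input were higher, and those with hnRNP H1 against Input went in both directions. Of 55 listed genes 30 were in the table. With hnRNP K against Input 5 of 32 entries were called higher and 0 lower (6.56% and 6.24% of all transcripts), with a median of 0.85, beside −0.07 over all transcripts. With hnRNP H1 against Input 2 were called higher and 3 lower (12.8% and 10.2%), with hnRNP F 1 and 0 (10.8% and 7.28%), and with La/SSB 0 and 0 (0.0226% each). Set directly against hnRNP K, 0 of 31 entries were higher and 7 lower with hnRNP H1 (13.8% and 13% of all transcripts), and 0 higher and 6 lower with hnRNP F (14.3% and 12.7%). hnRNP K against La/SSB gave 5 higher and 0 lower (7.33% and 4.85%). Vamp2, the vesicle SNARE of synaptic vesicles, rose with hnRNP K to 1220 ± 309 CPM, against 241 ± 48.3 CPM in Input (2.34 ± 0.33, edgeR adjusted p = 9.88e-05). Nsf, the ATPase that takes SNARE complexes apart, fell with hnRNP H1 by 2.72 against Input (edgeR adjusted p = 0.00239). Scamp5, a vesicle membrane protein, rose with hnRNP H1 by 1.64 ± 0.44 (edgeR adjusted p = 0.00935). With hnRNP H1, Vamp2 averaged 330 CPM, whereas Syn1 was high with all 3 hnRNPs. The hnRNP K count of 5 against Input was 1 with total counts, 2 or 3 without hnRNP K library 1 or 3, and 3 without Input library 1 or 3. The count of 7 was 4 without hnRNP H1 library 2 or without hnRNP K library 2 or 3. The count of 5 over La/SSB was 1 with total counts, 2 or 3 without hnRNP K library 1 or 2, and 2 or 3 without any 1 of the La/SSB libraries. This direction was not particular to synaptic genes. Of 21 Schwann cell marker entries, 5 were called higher and 0 lower with hnRNP K against Input, with a median of 0.88. Against hnRNP K, 2 of them were higher and 7 lower with hnRNP H1. For hnRNP K against Input, fibroblast and perineurium markers gave 5 higher and 1 lower of 22 (median 0.3). Macrophage and leukocyte markers gave 2 and 3 of 19 (median −0.03). The shares over all transcripts are those given above.

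The summed neuron markers, and those of fibroblasts and perineurium at 14.1% to 22.7% of reads, were also highest with hnRNP K, in each case through 1 entry. Ntrk2 took 0.0923% to 0.146% of hnRNP K reads and Col1a1, a collagen, 11.3% to 20.4%. Without Col1a1 the fibroblast and perineurium markers took 2.31% to 2.78% of reads with hnRNP K, against 3.12% to 3.5% in Input. The part of either list in the hnRNP K counts was not tested. Against FLAG RIP 10 of 31 synaptic entries were called higher and 0 lower with hnRNP K (15.7% and 14.9% of all transcripts), 8 and 4 with hnRNP H1 (18.7% and 17.1%), 5 and 1 with hnRNP F (16.5% and 13.6%), and 6 and 0 with La/SSB (8.51% and 5.36%). With FLAG library 2 as the only control library the higher counts for hnRNP H1, hnRNP F and La/SSB were 3, 3 and 1. The hnRNP F count of 5 was 3 without hnRNP F library 3 and 8 without FLAG library 2, and the La/SSB count of 6 was 3 without La/SSB library 3.

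Of 25 listed subunits of voltage-gated calcium channels 15 were in the table. Against Input 3 of 17 entries were called higher and 0 lower with hnRNP H1 (12.8% and 10.2% of all transcripts), 4 and 0 with hnRNP F (10.8% and 7.28%), 2 and 0 with hnRNP K (6.56% and 6.24%), and 0 and 0 with La/SSB (0.0226% each). Cacna1h, a T-type pore subunit, rose with hnRNP F to 70.7 ± 11.1 CPM, against 19.9 ± 4.72 CPM in Input (1.83 ± 0.58, edgeR adjusted p = 0.0335). Cacng7, a γ subunit, rose with hnRNP H1 to 20.1 ± 15.1 CPM and with hnRNP F to 8.58 ± 6.62 CPM, against 1.1 ± 0.546 CPM in Input (edgeR adjusted p = 0.00577 and 0.0448). The hnRNP F count of 4 was 1 without hnRNP F library 3, without any 1 of the Input libraries or with total counts. The hnRNP K count of 2 was 1 without any 1 of its libraries or without Input library 2 or 3, and 0 with total counts. FLAG RIP had 0 entries higher and 2 lower than Input (4.49% and 7.39% of all transcripts), and a list median of −1.13, beside 0.11 over all transcripts.

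Transcripts with the most similar profile to each mRNA were sought among 10224 candidates with a mean of at least 5 CPM, by Pearson's r of log2 CPM over the 18 libraries, which share depth and antibody groups. They are a description, with no test. Nefm was closest to Rab13, a small GTPase whose own mRNA is localised to protrusions of cultured fibroblasts, with r = 0.944 (Spearman's rank correlation 0.915). Rab13 averaged 1280 ± 383 CPM with hnRNP H1, 2030 ± 1120 CPM with hnRNP F, 36.9 ± 7.52 CPM with hnRNP K, 94.3 ± 19.7 CPM with La/SSB, 130 ± 50.6 CPM with FLAG and 111 ± 17.6 CPM in Input. Like Nefm, Rab13 had a mean below Input with hnRNP K. Zbtb12 (r = 0.94), a zinc-finger protein, did not, at 9.67 ± 2.73 CPM with hnRNP K and 9.57 ± 2.78 CPM in Input. LOC100911361 came between them (r = 0.943).

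Dpysl2 was closest to Dcaf8, a substrate receptor of a ubiquitin ligase, with r = 0.972 (rank correlation 0.841). Dcaf8 averaged 344 ± 63.5 CPM with hnRNP H1, 186 ± 43.3 CPM with hnRNP F and 42.9 ± 3.35 CPM in Input, and showed the same step from hnRNP H1 to hnRNP F. Tnpo2, a nuclear import receptor, and Rybp, a Polycomb-associated protein, followed with r = 0.967 and 0.962. Syn1 was closest to Ganab, the catalytic subunit of glucosidase II in the endoplasmic reticulum, with r = 0.967 (rank correlation 0.876). Ganab averaged 667 ± 73.9 CPM with hnRNP H1, 711 ± 206 CPM with hnRNP F, 590 ± 111 CPM with hnRNP K and 194 ± 40 CPM in Input. Erlin2, of the same membrane system, and the sterol transporter Abcg1 followed with r = 0.966 and 0.957.

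Syt13 was closest to an entry of Cdc42, a small GTPase that acts on the actin cytoskeleton, with r = 0.943 and a lower rank correlation of 0.808. This entry averaged 0.151 ± 0.218 CPM with FLAG and 17.6 ± 1.59 CPM with hnRNP H1, and Lrrc14b and Slco2a1, a prostaglandin transporter, were likewise nearly missing from FLAG RIP, at 0.786 ± 0.885 and 1.03 ± 0.772 CPM. Over the 15 libraries without FLAG RIP, an alternative chosen after seeing the data, r with Syt13 was 0.657 for Cdc42, 0.568 for Lrrc14b and 0.628 for Slco2a1. Cacna2d1 was closest to Pdzd4, with r = 0.973 (rank correlation 0.947). Pdzd4 averaged 34.1 ± 10.9 CPM with hnRNP H1, 27.1 ± 9.11 CPM with hnRNP F, 2.88 ± 1.28 CPM with hnRNP K, 5.45 ± 3.76 CPM with La/SSB, 0.0682 ± 0.0591 CPM with FLAG and 4.27 ± 2.98 CPM in Input. Rell1 and the receptor phosphatase Ptprj followed with r = 0.958 and 0.95. None of the 5 mRNAs was among the 3 closest to another of them.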

How the data were processed

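RNA of rat sciatic nerve axoplasm was sequenced in 18 libraries, grouped by the antibody named in the sample titles. CASAVA 1.8.2 and edgeR are named in the submitters' processing notes. No source used here names an aligner, a counter or a build, so no coordinates are printed. The table deposited by the authors holds, per transcript, counts, counts scaled by the authors (a signal not used here), FPKM and log2 fold changes per the file headers, with p-values deposited by the authors that were not used. The authors had added 1 to each count: the lowest deposited count was 1 in all libraries but one, and the deposited FPKM followed from the counts less 1 to a relative deviation of at most 5.7e-15. Counts less 1 were therefore used as reads.

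edgeR 4.0.16 (limma 3.58.1, R 4.3.3) fitted a quasi-likelihood model with TMM factors to transcripts passing filterByExpr (minimum count 10, minimum total 15). Comparisons between antibodies and with FLAG used the 15 RIP libraries (13227 transcripts), and those with Input all 18 (13263 transcripts). Tests were two-sided, p-values were adjusted by Benjamini-Hochberg over all transcripts, and an adjusted p under 0.05 was called. SE is the size of the log2 fold change over the square root of F. The procedure was tested on simulated data. The 5 mRNAs and the gene lists were chosen with earlier results of these data known. Genes named beside them were relatives of the same protein families, up to 3 called entries per list, comparison and direction with the highest mean CPM, and the 3 transcripts with the highest Pearson's r (log2 CPM, prior count 2). A floor is 3 reads. DESeq2 1.42.0 and the other alternatives are in the closing section. No pair of libraries in a group agreed within sampling noise. Figures were drawn with matplotlib 3.10.9.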

Additional observations from a re-analysis of the deposited data

How the results depend on the processing

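Of the 12 called tests of the 5 mRNAs, 9 stayed called under every alternative run, and of 390 values of the 30 tests under alternatives 363 kept their side of the threshold; none of the 12 called tests changed sign. The exceptions stand in the report beside their values or follow here. Cacna2d1 with hnRNP F against Input was not called with total counts (edgeR adjusted p = 0.0927) or with only the 6 libraries compared (0.052), and above La/SSB it was called with the added 1 kept (0.0411) or by DESeq2 (0.00852). Nefm with hnRNP K against Input passed with only the 6 libraries compared (0.0335), and against La/SSB it passed with only 6 libraries (0.0207) and by DESeq2 (0.0238).

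The labels do not say whether libraries of the same number share a preparation. Over 45 same-numbered pairs the correlation of deviations ran from 0.012 to 0.186, with 9 above 0.1. Of 18 libraries 18 correlated best with their own number. Same-numbered libraries were thus weakly alike, and the main fits took no account of it. With a replicate block the Cacna2d1 call of hnRNP F over hnRNP K was lost (0.0506) and Dpysl2 with hnRNP K against Input was called (0.0453), while calls over all transcripts went to 13 against 0 for hnRNP H1 over hnRNP F and to 30 against 6 for La/SSB over Input.

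Counts of called transcripts moved by over 1.5 times as follows, and the cause was not tested. With only the 6 libraries compared they were 2583 against 4734 (hnRNP H1 over FLAG RIP), 1451 against 3988 (hnRNP F over FLAG RIP), 2434 against 4044 (hnRNP K over FLAG RIP), 58 against 1835 (La/SSB over FLAG RIP), 4068 against 1698 (hnRNP K over Input), 92 against 6 (La/SSB over Input), 82 against 1576 (FLAG RIP over Input), 5859 against 3544 (hnRNP H1 over hnRNP K), 3514 against 2095 (hnRNP H1 over La/SSB) and 4192 against 1610 (hnRNP K over La/SSB). With FLAG library 2 alone hnRNP F, hnRNP K and La/SSB over FLAG RIP gave 2541, 2551 and 418. DESeq2 gave 73 for hnRNP H1 over hnRNP F, 2459 against 1606 for hnRNP F over La/SSB, 2465 for hnRNP K over La/SSB, 94 for La/SSB over Input and 2586 for FLAG RIP over Input. Total counts gave 4 for hnRNP H1 over hnRNP F and 2589 for hnRNP K over La/SSB.

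Leaving out 1 library at a time gave 3737 to 5266, 3096 to 4583, 2584 to 4685 and 882 to 2988 calls for hnRNP H1, hnRNP F, hnRNP K and La/SSB over FLAG RIP. Over Input it gave 2258 to 2516, 1627 to 2346, 853 to 1180 and 0 to 2 for the same 4, and 761 to 2795 for FLAG RIP. Between antibodies it gave 0 to 0 for hnRNP H1 over hnRNP F, 2579 to 2873 for hnRNP H1 over hnRNP K, 1382 to 1676 for hnRNP H1 over La/SSB, 2584 to 3179 for hnRNP F over hnRNP K, 1010 to 1446 for hnRNP F over La/SSB and 829 to 1075 for hnRNP K over La/SSB.

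Total counts shifted the median transcript by −0.90 to 0.24 on the log2 scale across comparisons. The higher share of calls was then 31% against 55.8% for hnRNP H1 over Input, 33.4% against 59.9% for hnRNP F, 12.9% against 51.2% for hnRNP K and 83.3% against 50% for La/SSB. Over FLAG RIP it was 35.7% against 52.3%, 36.7% against 54.7%, 26.1% against 51.3% and 74.2% against 61.4% in the same order, and over La/SSB 25% against 61.3%, 28.5% against 70.5% and 10.5% against 60.2% for the 3 hnRNPs. Cacna2d1 rests on 0 to 19 reads in FLAG and Input libraries.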

Other observations

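Chosen after its values were seen, 1 pattern follows the library numbers. Library 1 had the lowest Nefm of its group in 5 of 6 groups, the exception being FLAG RIP, where library 2 was lowest.

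Gap43, a growth-cone protein of regenerating axons, is on the list of neuron markers and outside the 5 mRNAs. Which cells its reads came from was not tested. It rose with hnRNP H1 to 133 ± 17.8 CPM and with hnRNP F to 158 ± 60.7 CPM, against 61.8 ± 24.6 CPM in Input (SD, n = 3 each; edgeR adjusted p = 0.0456 and 0.0191). FLAG RIP held 14.6 ± 6.22 CPM, below Input by −2.08 ± 0.40 (edgeR adjusted p = 0.0027). Ntrk2, the receptor of brain-derived neurotrophic factor, was highest with hnRNP K at 1620 ± 556 CPM, against 302 ± 88.5 CPM in Input (2.42 ± 0.40, edgeR adjusted p = 4e-04), and fell with hnRNP H1 to 132 ± 53.8 CPM (edgeR adjusted p = 0.0294). Stmn2, a microtubule-binding protein of axons, fell with hnRNP H1 to 1.45 ± 1.59 CPM, against 20.9 ± 4.26 CPM in Input (edgeR adjusted p = 0.027).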
